A study of Mus musculus with 36 samples.

Results

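Fasting changed the liver transcriptome of both wild-type mice and mice with 1 truncated copy of Pik3r1, and the results here concern the genes whose fasting change differed between those genotypes. The quantity throughout is the difference of responses: the log2 change from the fed to the fasted state in WT/Y657* liver minus the same log2 change in wild-type liver. Members were chosen by their labels as every liver library taken in the fed or the fasted state, in either genotype, which gave 24 of the 36 libraries of the series. The refed libraries make up the rest and enter the choice of genes tested and the estimate of the spread between mice.

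The study follows mice with a Pik3r1 truncation that in people causes SHORT syndrome, a disorder with insulin resistance. Liver RNA was sequenced as total RNA libraries with single reads of 50 bases. The design asks how the mutation alters the liver's response to food withdrawal. There were 6 wild-type fed, 6 wild-type fasted, 6 WT/Y657* fed and 6 WT/Y657* fasted libraries, each with its own label number, and the labels name no pairs of fed with fasted libraries.

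All mice were of the C57Bl/6J strain and ate chow until they were 16 weeks old. The paper gives their sex as male. Fed mice still had free access to chow when the liver was taken, and fasted mice had gone 16 h without food. WT/Y657* mice are heterozygous for the knock-in, which the labels write as PIK3R1(Y657X), and wild-type mice carry no introduced allele. The knock-in is present from the germline in every tissue, so no difference can be assigned to the allele in the liver itself. It was made together with a neomycin resistance cassette between LoxP sites, and the labels do not say whether that cassette remained.

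Pik3r1 encodes regulatory subunits of phosphoinositide 3-kinase, which carry the signal of the activated insulin receptor and its substrates to AKT, and the truncation falls in the SH2 domain nearest the end of the protein. In the fed liver, insulin signalling favours glycolysis, lipid synthesis and the making of secreted proteins. In the fasted liver, low insulin together with glucagon and glucocorticoids favours fatty acid oxidation, ketone production and glucose output, and protein synthesis slows.

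Library totals ran from 8839488 to 16246930 counts with a median of 13254493, and 13945 genes had enough counts to be tested. Libraries are named as in the labels, with ALC for fed on chow, ONF for fasted overnight, MT for WT/Y657* and the number. Several libraries stood apart from the others of their group. On the first principal component of log2 CPM (counts per 1000000 counts of the library), which held 31.01% of the variance and separated fed from fasted liver, the libraries ALC_MT_866, ALC_MT_868 and ALC_MT_869, below called the fed trio, lay between 8.50 and 9.73, while the other fed libraries lay between 30.5 and 43.2. On the second component, with 10.9% of the variance, the fed trio lay at -45.5, -36.6 and -21.0. The libraries ONF_MT_806 and ONF_MT_827, the fasted pair, lay at -25.9 and -36.0 on it. The libraries ALC_WT_847 and ALC_WT_849, the fed wild-type pair, were lowest of the 24 on the third component, at -25.8 and -31.1, and had the highest levels of acute phase genes. Label numbers also fell in runs. Fed numbers from ALC_WT_847 to ALC_WT_850 were all wild-type, those from ALC_WT_856 to ALC_WT_860 held both genotypes, and the fed trio was all WT/Y657*, while each fasted genotype had 3 libraries numbered under 900 and 3 numbered over 900. The labels do not say what a number stands for, and feeding state and number series cannot be told apart.

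**Figure D1:**
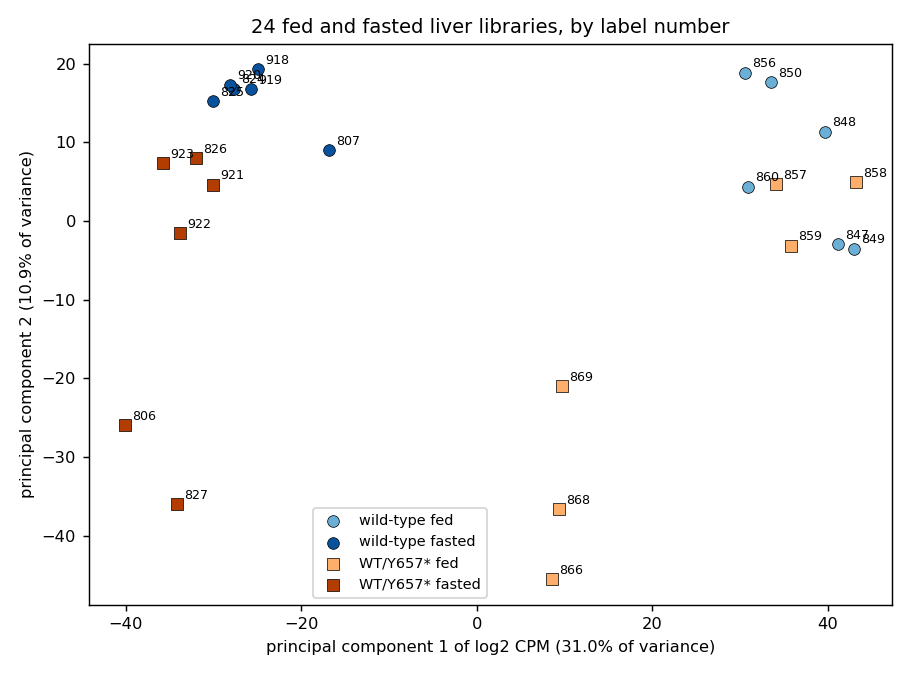
Each point is 1 library placed by principal components 1 and 2 of log2 CPM, with its label number, and its colour and shape give its group of 6. Fed and fasted libraries separate along component 1, and the fed trio and the fasted pair have the lowest values on component 2.

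The liver label was checked against markers of hepatocytes and of the other cells a liver sample can hold. All 8 hepatocyte markers were tested, the most abundant being albumin (Alb) with a mean of 52062 CPM, and their summed level had a median of 78919 CPM in wild-type fed, 92326 in wild-type fasted, 66294 in WT/Y657* fed and 86329 in WT/Y657* fasted liver. The lowest library sum was 54144 CPM in the fed WT/Y657* group and the highest was 100890 in the fasted wild-type group. Hepatocyte nuclear factor Hnf4a was the 1 called hepatocyte marker of 8, with a difference of 0.41 (SE 0.12, adjusted p 0.0333 by the edgeR quasi-likelihood test with Benjamini-Hochberg adjustment). No defining marker of any cell type was at 0 in the whole table.

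Markers of other cells gave 1 call. Kupffer cell markers (6 tested, 0 called by edgeR, Cd5l the most abundant with a mean of 112 CPM) summed to a median of 216 CPM in wild-type fed, 284 in wild-type fasted, 396 in WT/Y657* fed and 287 in WT/Y657* fasted liver, and their median difference of responses was -0.88. The highest library sum was 633 CPM, in ALC_MT_868. B cell markers had a median difference of -1.32 with 1 of 5 called, the surface antigen Ms4a1, at -2.79 (SE 0.81, adjusted p 0.0394). Ms4a1 had low medians of 0.22 CPM in wild-type fed, 1.03 in wild-type fasted, 0.69 in WT/Y657* fed and 0.58 in WT/Y657* fasted liver. Ms4a1 and Hnf4a were named after their values were seen, and among the 24 fits that each left out 1 library Ms4a1 was called in 11 and Hnf4a in 16. Neither was called without the fed trio, without both WT/Y657* sets or without the fed wild-type pair. Over all settings the difference of Hnf4a lay between 0.27 and 0.49 and that of Ms4a1 between -3.27 and -1.60, so neither changed sign. No marker was called among 5 cholangiocyte, 6 sinusoidal endothelial, 6 stellate, 2 neutrophil, 2 T cell, 2 NK cell (median -1.34), 5 erythroid, 2 platelet and 1 adipocyte markers tested. The 2 NK cell markers, Nkg7 and Gzma, were also low, with group medians from 0.087 to 0.95 CPM. Fewer cells of a type and less RNA per cell cannot be told apart in whole liver.

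Fasting acted differently on a minority of genes, and in both directions. The difference of responses was called, meaning an adjusted p under 0.05, for 607 of 13945 genes (4.35%). It was positive, written below as higher, for 361 (2.59%) and negative, written as lower, for 246 (1.76%). For the difference of responses these words give its sign and not the level in WT/Y657* liver. For comparison, fasting itself changed 4464 genes (32.01%) in wild-type and 4591 (32.9%) in WT/Y657* liver. Most called differences were modest, with a median size of 0.61 on the log2 scale against 0.22 over all genes tested, and 141 called genes differed by at least 1. The median difference over all genes was -0.01. With the 24 libraries alone in the fit 13599 genes were tested and 490.0 called.

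Scaling by library size alone changed the balance of directions, giving 210 higher and 404 lower genes, and moved the median of all genes to -0.07. Under that scaling the fed genotype comparison gave 672 higher and 84 lower genes in place of 169 and 161, the fasted genotype comparison 598 lower of 1679 called in place of 925 of 1821, and the WT/Y657* fasting response 1648 and 2931 in place of 2119 and 2472. The count of 607 fell to 409 without ONF_MT_806, the lowest of the 24 fits that left out 1 library, and was highest at 745 without ALC_MT_858.

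Fewer genes were called without the libraries that stood apart, in fits that also held fewer samples. Leaving out a single library of the others could lower the count as well, to 441 without ONF_WT_825 and 460.0 without ONF_MT_923. Without the fed trio 378 genes were called (2.63%), and 279 of them were among the 607. Without the fasted pair the count was 301 (2.12%), with 286 shared, and without both sets it was 151 (1.06%), with 136 shared. Without the fed wild-type pair it was 309 (2.16%), with 284 shared. Set against all fed libraries, the fasted libraries numbered under 900 gave 415 called genes (2.87%) and those numbered over 900 gave 44 (0.307%). With all libraries and runs of neighbouring label numbers as a covariate the count was 174, with 124 shared, and with fed libraries from ALC_WT_856 to ALC_WT_860 alone it was 81, with 54 shared. In each of these fits all 607 genes kept the sign of their difference. Those genes were chosen for their difference with all libraries, and each fit reused many of these libraries. A kept sign was therefore largely fixed beforehand and shows little about stability.

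**Figure D2:**
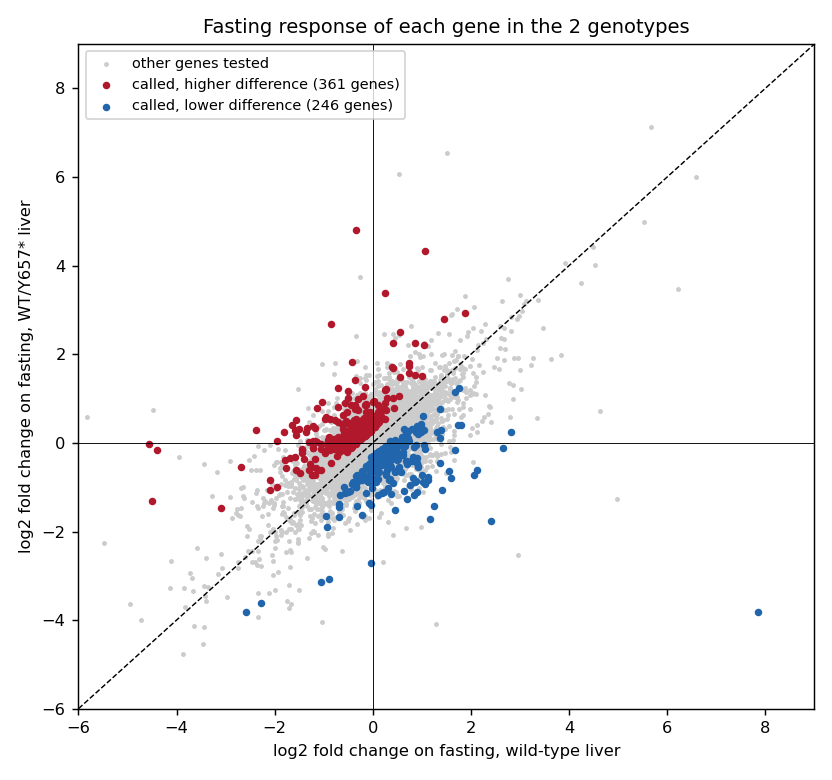
Each point is 1 gene, placed by its log2 change on fasting in wild-type liver (horizontal) and in WT/Y657* liver (vertical), with the dashed line where both are equal. Red and blue points are the 361 genes with a higher and the 246 with a lower difference of responses, and 3 genes lie outside the axes.

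The called genes can be sorted by what fasting did to them in each genotype alone. Of the 607, 235 had a fasting change called in WT/Y657* liver but not in wild-type liver, 134 of them up and 101 down. Another 217 had one called in wild-type but not in WT/Y657* liver, 84 up and 133 down. These counts of 235 and 217 became 187 and 94 without the fed trio, 148 and 92 without the fed wild-type pair, 105 and 107 without the fasted pair, and 55 and 41 without both WT/Y657* sets. Of the 607, a further 77 moved in opposite directions, with 54 down in wild-type and up in WT/Y657* liver and 23 the reverse, while 68 moved the same way by different amounts and 10 had neither change called. The same genes can be sorted by state. The genotypes differed among fasted mice alone for 435 of them, among fed mice alone for 71, in both states for 10 and in neither for 91, where 13.1% of all genes were called between fasted genotypes and 2.37% between fed genotypes. The 6 fasted WT/Y657* libraries did not overlap the 6 fasted wild-type libraries for 257 of the 607, where 5.04% of all genes tested did not. The fed genotypes did not overlap for 37 of the 607 and for 1.07% of all genes. The 607 were chosen by a difference made of these same fed and fasted genotype comparisons. Shares above those of all genes were therefore largely fixed beforehand.

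The fed genotype calls need a reservation, because 330 genes were called between fed genotypes with all libraries and 0 without the fed trio by the same edgeR test, where 1021 genes had an unadjusted p under 0.05. With all libraries, DESeq2 called 621 genes and limma-voom 313 between the fed genotypes. The count was 68 without ALC_MT_868 alone, ALC_MT_869 alone 91, ALC_MT_866 alone 105, ALC_WT_847 alone 102, ALC_WT_849 alone 124, ALC_WT_856 alone 202 and ALC_WT_848 alone 210, and leaving out ALC_MT_857 or ALC_MT_858 raised it, to 593 and to about 9.0e+02. Between fasted genotypes the 1821 calls came to 1168 without ONF_MT_806.

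The gene with the smallest p was Pfkfb2, which encodes an enzyme that makes and breaks down fructose 2,6-bisphosphate, an activator of glycolysis. Levels below are the lowest, median and highest CPM of the 6 libraries of a group. Pfkfb2 stood at 34.6, 41.1 and 51.5 CPM in wild-type fed, 28.9, 32.2 and 37.1 in wild-type fasted, 29.7, 32.1 and 39.1 in WT/Y657* fed and 38.9, 60.2 and 74.2 in WT/Y657* fasted liver. Fasting lowered it in wild-type liver by a log2 change of -0.35 and raised it in WT/Y657* liver by 0.85, a difference of 1.20 (SE 0.15, adjusted p 2.7e-05). All 6 fasted WT/Y657* values lay above all 6 fasted wild-type values, while the fed genotypes overlapped. The difference was 1.41 with the fasted libraries under 900 and 0.96 with those over 900.

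Other genes with very small p also ended higher in fasted WT/Y657* liver. Nrbp2, a pseudokinase gene, was the clearest by level: 24.4, 26.4 and 27.9 CPM in wild-type fed, 29.2, 31.7 and 34.9 in wild-type fasted, 17.9, 20.9 and 24.2 in WT/Y657* fed and 37.1, 50.1 and 58.3 in WT/Y657* fasted liver, with no overlap between genotypes in either state. Its difference was 0.95 (SE 0.14, adjusted p 0.000282). Arhgap5, which encodes a GTPase-activating protein, fell in wild-type liver (-0.22) and rose in WT/Y657* liver (0.52), with a difference of 0.74 (SE 0.12, adjusted p 0.000583) and fasted genotypes that did not overlap. The small Cajal body RNA SCARNA6 fell in wild-type liver from a median of 11.9 to 5.10 CPM and had medians of 6.86 fed and 8.67 fasted in WT/Y657* liver, a difference of 1.68 (SE 0.28, adjusted p 0.000596). Each of these 4 genes was called without the fed trio, without the fasted pair, without both and without the fed wild-type pair.

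**Figure D3:**
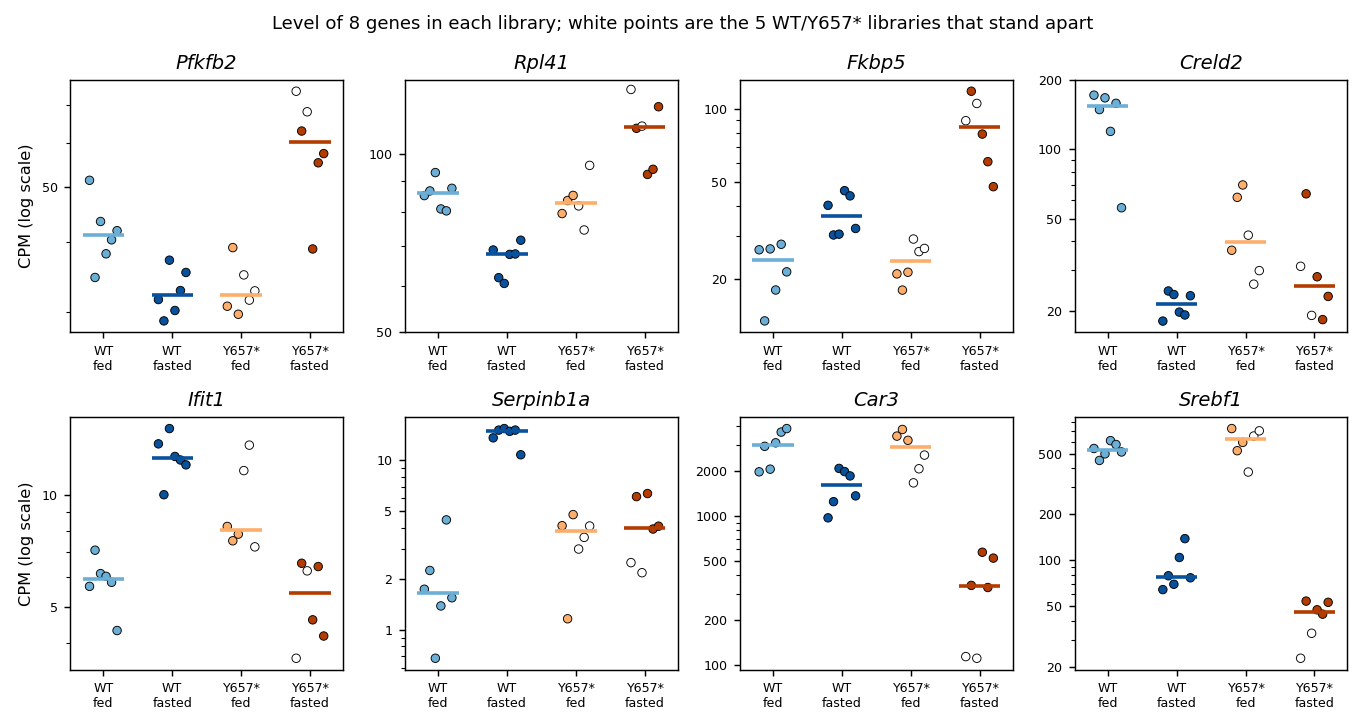
Each point is the level of a gene in 1 library, in CPM on a log axis, with a bar at the group median of 6 libraries; white points are the fed trio and the fasted pair. Pfkfb2, Rpl41, Fkbp5 and Creld2 had a higher and Ifit1, Serpinb1a, Car3 and Srebf1 a lower difference of responses.

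Genes for the proteins of the cytosolic ribosome formed the broadest group. Of 82 tested, 57 were called higher and 0 lower, 75 had an unadjusted p under 0.05, and all 82 differences were positive, with a median of 0.43 against -0.01 over all genes. The share of all genes called, 4.35%, is the background for each list. Fasting lowered 50 of them and raised 0 in wild-type liver (median -0.25), and raised 50 and lowered 4 in WT/Y657* liver (median 0.21). Rpl41, of the large subunit, had medians of 85.9 and 67.8 CPM in wild-type and 82.7 and 111 in WT/Y657* liver, a difference of 0.76 (SE 0.12, adjusted p 0.000583). Rpl9 stood at a median of 121 CPM in fasted WT/Y657* liver against 84.4 in fasted wild-type liver, with a difference of 0.67 (SE 0.12, adjusted p 0.00137). For both of these genes the 6 fasted WT/Y657* libraries lay above the 6 fasted wild-type libraries, and the fed genotypes overlapped. Each was called without the fed trio, without the fasted pair and without both.

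The list's mean log2 level, centred on the 24 libraries, was -0.32 to -0.08 in fasted wild-type and 0.05 to 0.39 in fasted WT/Y657* libraries, with fed libraries from -0.10 to 0.13. Fasted wild-type libraries under 900 lay at -0.32 to -0.28 and those over 900 at -0.16 to -0.08. The number of members called was 44 without the fed trio, 38 without the fasted pair and 26 without both, with medians of 0.46, 0.41 and 0.44. With fasted libraries under 900 it was 57 (median 0.56), with those over 900 it was 1 (median 0.31), without the fed wild-type pair it was 38, and with scaling by library size alone it was 36. Ribosomal protein genes share sequence with many processed pseudogenes, so single members are uncertain at a read length of 50 bases.

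Promoter sequences were available from RefSeq (GRCm38.p6, 250 bases before to 50 after the start of each gene) for 9585 of the 13945 genes tested and were searched on both strands for short motifs. For a gene with several RefSeq starts the first listed was used. The letters CCGGAAG, the core that ETS family factors bind, were in 17.4% of all these promoters, in 23.8% of the 252 from genes called higher (18.9% of 206 without ribosomal protein genes), in 7.39% of the 176 from genes called lower, in 38.3% of 60 ribosomal protein promoters and in 45.7% of the 46 among them that were called. A match describes letters in a window and shows neither binding nor cause. Rpl41 is shown because the gene rule named it, and Rps21 and Rps25 were chosen after their matches were seen, Rps21 because it holds 2. The stretches are the 150 bases before the start of Rpl41 (chr10:128549169-128549318, minus strand), Rps21 (chr2:180257229-180257378, plus strand) and Rps25 (chr9:44407564-44407713, plus strand), with the motif in capitals. The stretch of Rps25 lies inside the gene as GENCODE M21 places it and that of Rpl41 mostly so, before a later start.
Rpl41: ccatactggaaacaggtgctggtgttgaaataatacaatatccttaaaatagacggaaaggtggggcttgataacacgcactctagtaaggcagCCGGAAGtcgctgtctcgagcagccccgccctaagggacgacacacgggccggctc
Rps21: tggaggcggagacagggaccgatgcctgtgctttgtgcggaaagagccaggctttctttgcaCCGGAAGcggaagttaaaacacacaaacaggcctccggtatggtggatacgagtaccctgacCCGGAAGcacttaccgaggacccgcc
Rps25: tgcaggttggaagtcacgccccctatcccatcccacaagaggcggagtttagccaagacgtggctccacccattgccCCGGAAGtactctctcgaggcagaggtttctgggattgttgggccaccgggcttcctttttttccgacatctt

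Other growth-related lists had a smaller share of members called, nearly all of them higher. Of 78 nuclear genes for oxidative phosphorylation, 13 were called higher and 0 lower, with a median of 0.16. Fasting raised 30 of these and lowered 5 in WT/Y657* liver, and raised 3 and lowered 4 in wild-type liver. Ndufa1, a complex I subunit, had a median of 45.3 CPM in fasted wild-type and 59.9 in fasted WT/Y657* liver, with no overlap, and a difference of 0.41 (SE 0.10, adjusted p 0.0113). Cox7a2, a complex IV subunit, had medians of 108 and 172 CPM, again with no overlap, and a difference of 0.51 (SE 0.13, adjusted p 0.0167). Without the fed trio 5 of the 78 were called, without the fasted pair 4, and without both 0 by the edgeR test, where 27 had an unadjusted p under 0.05. With all libraries DESeq2 called 14 higher and limma-voom 12, and scaling by library size alone left 3 higher and 1 lower. Neither Ndufa1 (0.35) nor Cox7a2 (0.44) was called without the fasted pair, and Ndufa1 (0.35) was not called without the fed trio.

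Leaving out single libraries changed this count too. It was 4 without ONF_MT_923, 5 without ONF_WT_807 or ALC_MT_866, 6 without ONF_MT_806, ALC_MT_868 or ALC_WT_860, 7 without ONF_WT_824 or ONF_WT_825, and 8 without ALC_WT_848 or ALC_WT_856 or ALC_MT_857. A single member was called lower without ONF_WT_807, ONF_MT_921, ONF_MT_922 or ALC_MT_866. Of 76 mitochondrial ribosomal protein genes 7 were called higher and 1 lower (median 0.08), and 4 higher without any 1 of ALC_WT_848 or ALC_WT_856, ONF_MT_806 or ONF_MT_923, or ALC_MT_857. The lower call was lost without any 1 of ONF_WT_919, ONF_MT_806, ONF_MT_827, ALC_MT_868 or ALC_MT_869.

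Of 47 ribosome biogenesis and MYC growth genes 4 were called higher and 0 lower (median 0.16), and 2 without any 1 of ONF_WT_807 or ONF_WT_825, ALC_WT_847 or ONF_MT_923. Hspe1, a mitochondrial co-chaperone, fell in wild-type liver (-0.42) and rose in WT/Y657* liver (0.32), a difference of 0.75 (SE 0.14, adjusted p 0.00176), and was called without each set of libraries that stood apart. Cad, the enzyme that starts pyrimidine synthesis, had medians of 34.1 CPM fed and 9.24 fasted in wild-type liver and of 21.3 and 10.8 in WT/Y657* liver. Its difference was 0.94 (SE 0.23, adjusted p 0.0152), and it was not called without the fed trio (0.57), without the fasted pair (0.77) or without the fed wild-type pair (0.84). Myc itself was not called, with a difference of -0.73 (SE 0.66, adjusted p 0.584).

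**Figure D4:**
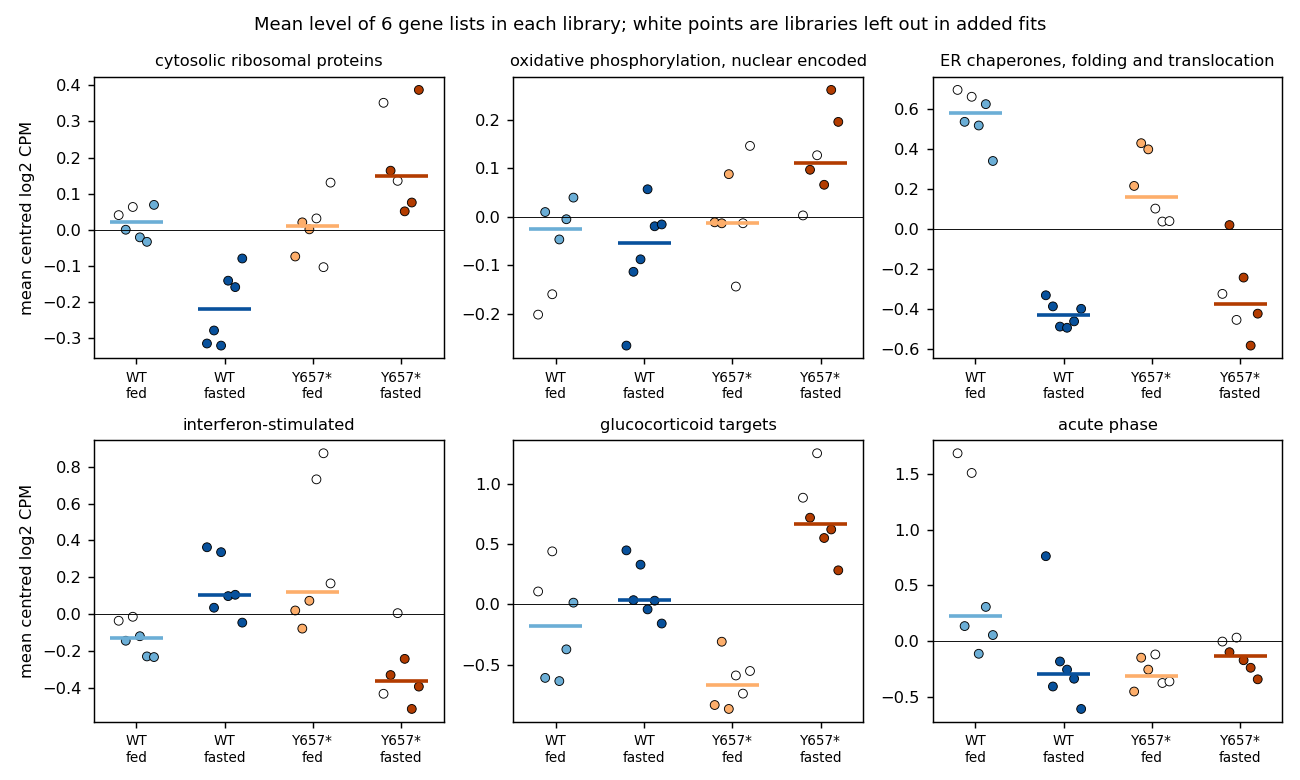
Each point is the mean centred log2 CPM of a gene list in 1 library, with a bar at the group median of 6; white points are the fed trio, the fasted pair and the fed wild-type pair. Fasted wild-type and fasted WT/Y657* libraries do not overlap for the ribosomal list, and white points lead the fed groups for the interferon and acute phase lists.

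Genes of the endoplasmic reticulum (ER) folding machinery fell on fasting in both genotypes, with a smaller median fall in WT/Y657* liver. Of 55 tested, 52 fell and 0 rose in wild-type liver (median -0.94) and 40 fell and 1 rose in WT/Y657* liver (median -0.55). The difference was called higher for 14 and lower for 0, with a median of 0.35, and 34 had an unadjusted p under 0.05. Much of it lay in the fed state, where 14 members were lower in WT/Y657* liver and 0 higher, against 0 lower and 7 higher between fasted genotypes.

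Creld2, an ER stress-induced secreted protein, stood at 55.8, 153 and 171 CPM in wild-type fed, 18.03, 21.5 and 24.3 in wild-type fasted, 26.1, 39.5 and 70.1 in WT/Y657* fed and 18.3, 25.6 and 64.1 in WT/Y657* fasted liver. Its difference was 2.13 (SE 0.40, adjusted p 0.00261), with fed genotypes that overlapped through the lowest wild-type value. Dnajc3, a co-chaperone that restrains the ER kinase PERK, went from a median of 507 to 268 CPM in wild-type and from 339 to 301 in WT/Y657* liver, a difference of 0.70 (SE 0.13, adjusted p 0.00224). Ostc, part of the complex that attaches N-glycans, had fasted medians of 23.003 CPM in wild-type and 32.5 in WT/Y657* liver and a difference of 0.60 (SE 0.14, adjusted p 0.0101). Creld2 and Dnajc3 were called without each set of libraries that stood apart, and Ostc was not called without the fasted pair (0.51).

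The list's fed level was 0.34 to 0.70 in wild-type libraries and 0.21 to 0.43 in ALC_MT_857, ALC_MT_858 and ALC_MT_859, but 0.04 to 0.10 in the fed trio. Without the trio 3 of the 55 were called and the median was 0.20, and without both WT/Y657* sets 2 were called with a median of 0.22. Without the fed wild-type pair there were 6, with fasted libraries under 900 8 and with those over 900 1. The count was 9 without any 1 of ONF_WT_918, ALC_WT_847, ONF_MT_826 and ALC_MT_857 or ALC_MT_868.

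Targets of the glucocorticoid receptor had a higher median fasting change in WT/Y657* liver, and few of the differences were called. Of 18 tested, 13 rose and 1 fell there (median 1.18), against 3 and 2 in wild-type liver (median 0.17), and the median difference was 1.31. The difference itself was called higher for 4, Fkbp5, Zbtb16, Tsc22d3 and Mt2, and lower for 0, and 10 had an unadjusted p under 0.05. Without ONF_MT_921 alone 1 member was called lower. Fkbp5, a co-chaperone that dampens the receptor, stood at 13.5, 23.9 and 27.8 CPM in wild-type fed, 30.4, 36.2 and 46.2 in wild-type fasted, 18.01, 23.6 and 29.2 in WT/Y657* fed and 47.97, 84.3 and 118 in WT/Y657* fasted liver, a difference of 1.07 (SE 0.27, adjusted p 0.0208). The fasted genotypes did not overlap for Fkbp5, and in each genotype the fasted libraries lay above the fed ones.

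Zbtb16, a zinc finger repressor, had medians of 13.99 CPM fed and 9.30 fasted in wild-type liver and of 12.5 and 29.5 in WT/Y657* liver, a difference of 1.93 (SE 0.45, adjusted p 0.0130). Tsc22d3, which encodes the anti-inflammatory protein GILZ, had fasted medians of 96.6 CPM in wild-type and 151 in WT/Y657* liver and a difference of 1.45 (SE 0.35, adjusted p 0.0151). For both genes the fasted genotypes did not overlap. Per1, a clock gene that glucocorticoids induce, had fasted medians of 12.95 and 23.2 CPM, and its difference of 1.42 (SE 0.46, adjusted p 0.0744) was not called, though it was by DESeq2, by the edgeR likelihood ratio test, with the label number covariate, without ONF_WT_920 (1.59) and without ALC_MT_858 (1.65).

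Several of these calls were lost when libraries were left out. Zbtb16 was not called without the fed trio (1.64) or without the fasted pair (1.46), Tsc22d3 not without the fed trio (1.11), and Fkbp5 not without the fasted pair (0.95) or without the fed wild-type pair (0.93). Of the 18 glucocorticoid targets, 1 was called higher and 1 lower without the fed trio, 2 without the fasted pair, 0 without both, and 2 without the fed wild-type pair, with medians of 1.06, 1.001, 1.02 and 0.85. Beside that 0, found with edgeR, 7 had an unadjusted p under 0.05, and with all libraries DESeq2 called 6 and limma-voom 3. The list's mean level was 0.28 to 1.25 in fasted WT/Y657* and -0.16 to 0.45 in fasted wild-type libraries, with fed levels of -0.87 to -0.31 and -0.64 to 0.44.

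Acute phase genes, which the liver makes in inflammation, had 8 of 40 called higher and 1, Hamp2, lower, with a median of 0.80. Fasting lowered 17 and raised 1 of them in wild-type liver and lowered 3 and raised 8 in WT/Y657* liver. The fed wild-type pair had the highest list levels of its group, with means of 1.68 and 1.51 where the other fed wild-type libraries lay at -0.11 to 0.31. Without those libraries 2 members were called and the median was 0.28. The count called higher was 2 without ALC_WT_847 alone, 3 without any 1 of ONF_WT_824, ONF_WT_825, ONF_WT_918 or ONF_WT_919, ALC_WT_849 or ALC_MT_857, ALC_MT_868 or ALC_MT_869, and 4 without ONF_WT_920 or ONF_MT_806 or ONF_MT_826. Without the fed trio it was 2, without the fasted pair 4 and without both 1. Of the 24 fits that left out 1 library, 8 kept a member called lower, those without ONF_WT_807, ONF_WT_920, ALC_WT_860, ONF_MT_921, ONF_MT_922, ALC_MT_857, ALC_MT_858 or ALC_MT_859.

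The cytokine receptor genes Il1r1 and Il6ra of this list were called without the fed wild-type pair too, at 1.66 and 0.96. Il1r1, the receptor for interleukin 1, stood at 43.5, 67.6 and 120.4 CPM in wild-type fed, 16.1, 22.2 and 28.1 in wild-type fasted, 24.1, 30.8 and 52.7 in WT/Y657* fed and 28.2, 42.1 and 48.1 in WT/Y657* fasted liver. Fasting lowered it in wild-type liver (-1.80), and the difference was 2.05 (SE 0.31, adjusted p 0.000568), with fasted genotypes that did not overlap. Il6ra, the receptor for interleukin 6, had fed and fasted medians of 23.3 and 21.5 CPM in wild-type and 17.1 and 29.4 in WT/Y657* liver, a difference of 1.01 (SE 0.19, adjusted p 0.00256). Il1r1 was called without each set of libraries that stood apart, and Il6ra was not called without both WT/Y657* sets (0.70).

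The 2 largest positive differences among the genes named here were not called without that same pair. Mt2, a metal-binding metallothionein that glucocorticoids also induce, stood at 0.280, 1.33 and 89.8 CPM in wild-type fed, 3.61, 18.2 and 36.1 in wild-type fasted, 0.306, 0.981 and 2.16 in WT/Y657* fed and 13.6, 22.6 and 64.9 in WT/Y657* fasted liver, and its difference was 5.16 (SE 1.32, adjusted p 0.0217). It was 0.39 and not called without the fed wild-type pair, and 4.03 and not called without ALC_WT_847 alone. The serum amyloid gene Saa3 reached 437 CPM in 1 fed wild-type library against a group median of 13.5, and its difference of 4.25 (SE 1.24, adjusted p 0.0444) came to 0.60, not called, without the fed wild-type pair. Neither gene was called without the fed trio, at 5.66 for Mt2 and 4.62 for Saa3. Saa3 was called in 7 of the 24 fits that left out 1 library, and was lowest, at 2.94, without ALC_WT_847. Saa3 shares sequence with other serum amyloid genes and Mt2 with Mt1, so their single values are uncertain.

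Interferon-stimulated genes, which restrain viruses and present antigens, had calls in the other direction. Of 57 tested, 22 were called lower and 0 higher, 43 had an unadjusted p under 0.05, and the median difference was -0.88. In wild-type liver 12 rose and 8 fell on fasting (median 0.20), and in WT/Y657* liver 30 fell and 1 rose (median -0.72). Between fasted genotypes 20 were lower and 0 higher in WT/Y657* liver, and between fed genotypes 7 were higher and 0 lower.

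Ifit1, which binds viral RNA, stood at 4.31, 5.93 and 7.10 CPM in wild-type fed, 10.02, 12.6 and 15.1 in wild-type fasted, 7.25, 8.04 and 13.6 in WT/Y657* fed and 3.63, 5.43 and 6.55 in WT/Y657* fasted liver. Fasting raised it in wild-type liver (1.12) and lowered it in WT/Y657* liver (-0.84), a difference of -1.96 (SE 0.29, adjusted p 0.000282), and no pair of groups within a genotype or a state overlapped. Cmpk2, a mitochondrial nucleotide kinase, had medians of 4.01 CPM fed and 10.9 fasted in wild-type liver and 6.73 and 5.61 in WT/Y657* liver, a difference of -1.83 (SE 0.31, adjusted p 0.000711). Ifit3, a partner of Ifit1, had fasted medians of 7.47 and 3.79 CPM with no overlap and a difference of -2.01 (SE 0.38, adjusted p 0.00256). Ifit1 and Cmpk2 were called without each set of libraries that stood apart and with fasted libraries under 900 or over 900 alone, while Ifit3 was not called without both WT/Y657* sets (-1.45).

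Several genes of guanylate-binding proteins, GTPases induced by interferon gamma, were called with all libraries. Of these, Gbp3, Gbp6 and Gbp10 are described here and were not called without the fed trio. Gbp7 (-1.38) and Gbp1 were also called with all libraries. Gbp3 reached 19.8 CPM in fed WT/Y657* liver, with medians of 10.4 fed and 4.82 fasted there and 4.88 and 8.35 in wild-type liver, and a difference of -1.96 (SE 0.43, adjusted p 0.00826). Gbp6 (-1.97, SE 0.53, adjusted p 0.0286) and Gbp10 (-2.68, SE 0.66, adjusted p 0.0173) share sequence with each other, and their values are uncertain. Without the trio the values of Gbp3, Gbp6 and Gbp10 were -1.24, -1.06 and -1.55. Gbp10 was not called without the fasted pair (-2.54) either, nor Gbp6 without the fed wild-type pair (-1.92), and Gbp6 was not called without ONF_WT_825 (-1.80), ALC_WT_847 (-1.89) or ALC_MT_868 (-1.44).

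Interferon list levels were 0.73, 0.87 and 0.17 in ALC_MT_866, ALC_MT_868 and ALC_MT_869, -0.08 to 0.07 in the other fed WT/Y657* libraries, -0.05 to 0.36 in fasted wild-type and -0.51 to 0.01 in fasted WT/Y657* libraries. Members called lower came to 8 without the fed trio, 15 without the fasted pair, 6 without both and 12 without ALC_MT_868 alone, with medians of -0.53, -0.92 and -0.60 for the first 3. With fasted libraries under 900 there were 5, with those over 900 3, and without the fed wild-type pair 14. Kupffer cell markers summed to 525 CPM in ALC_MT_866, 633 in ALC_MT_868 and 396 in ALC_MT_869, but also to 396 in ALC_MT_859 and 397 in ONF_WT_807, against medians of 216 in wild-type fed and 284 in wild-type fasted liver. In the same order the fed trio had NK cell marker sums of 7.11, 6.50 and 2.33 CPM, against 0.851 to 1.34 in the other fed WT/Y657* libraries, and neutrophil marker sums of 15.5, 4.22 and 18.5, against 1.34 to 2.08. Platelet marker sums were 5.79, 6.03 and 5.30, against 2.24 to 2.48, and B cell marker sums were 23.01, 11.7 and 13.5, against 4.21 to 11.8. The part of these cells in the interferon result was not tested.

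The letters TTCNNNGAA, the gamma-activated sequence (GAS) of interferon gamma signalling, were found on either strand in 7.25% of all 9585 promoters, in 24.4% of 41 promoters of the interferon list and in 29.4% of the 17 among them that were called, but in 8.52% of the 176 promoters of genes called lower. The TATA box TATAAA (24.4%) and the nuclear receptor half-site AGGTCA (26.8%) were as frequent in the interferon list, against 7.41% and 12.5% of all promoters. Irf1, a transcription factor, and the immunity-related GTPases Irgm2 and Igtp were chosen after their matches were seen, since all 3 were called lower and hold the motif near the start. The stretches are the 150 bases before the start of Irf1 (chr11:53769864-53770013), Irgm2 (chr11:58214827-58214976) and Igtp (chr11:58199406-58199555), all on the plus strand, with the match in capitals. The stretch of Irgm2 lies inside the gene as GENCODE M21 places it, before a later start. Irgm2 and Igtp lie near each other and share most of the letters around the match.
Irf1: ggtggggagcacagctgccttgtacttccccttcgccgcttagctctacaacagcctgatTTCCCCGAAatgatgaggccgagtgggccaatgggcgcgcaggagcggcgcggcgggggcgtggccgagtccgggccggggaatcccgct
Irgm2: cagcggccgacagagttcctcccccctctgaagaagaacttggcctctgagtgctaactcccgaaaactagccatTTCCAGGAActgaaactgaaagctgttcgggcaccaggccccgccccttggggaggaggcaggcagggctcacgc
Igtp: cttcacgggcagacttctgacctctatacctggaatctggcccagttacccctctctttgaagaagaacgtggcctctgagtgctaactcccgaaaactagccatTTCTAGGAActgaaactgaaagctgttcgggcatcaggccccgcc

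Of 40 genes tested in the insulin signalling list, 2 were called lower and 0 higher, with a median of -0.01, and this share is near the 4.35% of all genes. The called member Pdk1 encodes a pyruvate dehydrogenase kinase and also stands in the glycolysis and glycogen list. Pik3r1 itself had fasting changes of -0.53 (wild-type) and -0.52 (WT/Y657*) on the log2 scale, and its difference was 0.01 (SE 0.14, adjusted p 0.983). The differences of the insulin receptor Insr (0.11, SE 0.13, adjusted p 0.669), the mTORC2 subunit Rictor (0.11, SE 0.13, adjusted p 0.712) and the transcription factor Foxo1 (0.41, SE 0.22, adjusted p 0.310) were not called either. Irs1, a receptor substrate, was called higher on fasting in wild-type liver (0.45), with fasted medians of 53.1 CPM in wild-type and 36.6 in WT/Y657* liver that did not overlap, but its difference of -0.51 (SE 0.17, adjusted p 0.0855) was not called, except without the fed trio (-0.75). Irs2, the other main substrate in liver, had a difference of 0.52 (SE 0.39, adjusted p 0.496), called only with the fasted libraries under 900 (1.37) among the fits that left out libraries by set or number.

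The 2 called members were Pdk1 and Phlpp1. Pdk1, a pyruvate dehydrogenase kinase included in that list, stood at 87.6, 109 and 126 CPM in wild-type fasted and 40.1, 71.6 and 80.4 in WT/Y657* fasted liver, with no overlap, and its difference was -1.18 (SE 0.27, adjusted p 0.0113). It was not called without both WT/Y657* sets (-1.07). Phlpp1, a phosphatase that acts on AKT, rose on fasting in wild-type liver (0.48), with fasted medians of 44.1 CPM in wild-type and 28.6 in WT/Y657* liver and no overlap. Its difference of -0.58 (SE 0.15, adjusted p 0.0199) was not called without the fasted pair (-0.54) or without the fed wild-type pair (-0.47).

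Among 26 genes that insulin controls in liver, 2 were called lower and 0 higher, with a median of -0.25. Srebf1, the lipogenic transcription factor, fell on fasting in both genotypes, by a log2 change of -2.58 in wild-type and -3.81 in WT/Y657* liver. The lowest, median and highest fasted levels were 64.3, 77.99 and 139 CPM in wild-type and 22.8, 45.9 and 54.04 in WT/Y657* liver, with no overlap, while fed medians were 526 and 622. Its difference (-1.24, SE 0.27, adjusted p 0.00775) was called without each set of libraries that stood apart and was -1.13 with fasted libraries under 900 and -1.31 with those over 900.

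Fbp1, the gluconeogenic enzyme fructose bisphosphatase, reversed direction. It stood at 654, 839 and 967 CPM in wild-type fed, 998, 1222 and 1354 in wild-type fasted, 1101, 1479 and 1639 in WT/Y657* fed and 777, 874 and 1337 in WT/Y657* fasted liver, so that it rose in wild-type liver (0.52) and fell in WT/Y657* liver (-0.54), a difference of -1.06 (SE 0.17, adjusted p 0.000583). The fed genotypes did not overlap, and the fasted ones did. Fbp1 was called without each set of libraries that stood apart, at -1.05 without both WT/Y657* sets.

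Other insulin targets gave no call. Igfbp1, an IGF-binding protein that insulin suppresses, reached 352 CPM in 1 fasted WT/Y657* library, and its difference was 2.03 (SE 0.95, adjusted p 0.234). The gluconeogenic genes Pck1 (0.18, SE 0.31, adjusted p 0.807) and G6pc (0.13, SE 0.65, adjusted p 0.943) did not pass the test, and G6pc ranged from 100.2 to 1604 CPM within fed wild-type liver. A p above the threshold does not show that the responses were equal.

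Glycolysis and glycogen genes had 2 of 31 called higher, Pfkfb2 and Pfkfb1, and 5 lower, Gckr, Pdk1, Pygl, Ppp1r3c and Eno1, with a median of -0.27. Gckr, which encodes a regulator of glucose use, had fed medians of 119 CPM in wild-type and 147 in WT/Y657* liver that did not overlap, and fell on fasting in WT/Y657* liver (-0.55), with a difference of -0.53 (SE 0.11, adjusted p 0.00523). It was not called without both WT/Y657* sets (-0.36). Without the fed trio 1 member was called higher and 6 lower, without the fasted pair 1 and 3, without both 1 and 2, and without the fed wild-type pair 2 and 2. The lower count was 8 without ALC_WT_860. The higher count was 1 without any 1 of ONF_WT_807, ONF_WT_824 or ONF_WT_825, ALC_WT_847, ALC_WT_848 or ALC_WT_856, ONF_MT_826 or ONF_MT_827, or ALC_MT_868 or ALC_MT_869.

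Pfkfb2 had the smallest p of all genes, so the stretch before 1 of its RefSeq starts, the first listed, is shown. That start is internal, since GENCODE M21 places the gene at chr1:130689182-130729253, minus strand. The stretch holds CACGTG, the E-box that clock, MYC and carbohydrate-responsive factors bind, once in the 150 bases before that start (chr1:130715822-130715971, minus strand, RefSeq, GRCm38.p6), here in capitals. That motif, which reads the same on both strands, was in 10.2% of all 9585 promoters, 12.3% of those called higher and 10.2% of those called lower.
Pfkfb2: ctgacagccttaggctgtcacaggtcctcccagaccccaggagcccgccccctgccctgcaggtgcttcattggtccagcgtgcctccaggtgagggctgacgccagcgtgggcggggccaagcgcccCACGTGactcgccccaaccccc

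Of 45 genes for gluconeogenesis and amino acid breakdown 2, Fbp1 and Oat, were called lower and 0 higher, with a median of -0.22, and the lower count was 8 without ONF_MT_922 and the higher count 1 without ONF_MT_921 or ONF_MT_923. Oat, ornithine aminotransferase, stood at 517, 729.7 and 959 CPM in wild-type fed, 1590.2, 1892 and 2348 in wild-type fasted, 694, 1009 and 1225 in WT/Y657* fed and 664, 1178 and 1555 in WT/Y657* fasted liver. Its rise was called in wild-type liver (1.39), the fasted genotypes did not overlap, and the difference was -1.11 (SE 0.24, adjusted p 0.00655). It was not called without the fed trio (-0.90).

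Most tested targets of the nuclear receptor PPARA rose on fasting in both genotypes. All 47 rose in wild-type liver and 43 in WT/Y657* liver, with medians of 1.39 and 1.23. The difference was called lower for 2 of the 47 and higher for 0, near the 4.35% of all genes, with a median of -0.19. The lower count was 1 without any 1 of ONF_WT_824, ONF_WT_825, ONF_WT_919, ONF_WT_920, ALC_WT_847, ALC_WT_848, ALC_WT_849, ALC_WT_860, ONF_MT_806, ONF_MT_922, ONF_MT_923, ALC_MT_868 or ALC_MT_869, and 4 without ALC_WT_856 or ALC_MT_858. Bdh1, which makes the ketone body 3-hydroxybutyrate, had fasted levels of 288, 333 and 360.0 CPM in wild-type and 121, 222 and 255 in WT/Y657* liver, with no overlap. It rose in wild-type liver (0.97), its difference was -0.73 (SE 0.16, adjusted p 0.00661), and it was called without each set of libraries that stood apart and with fasted libraries under 900 or over 900 alone. Plin2, a lipid droplet coat protein, rose in both genotypes (1.76 and 1.23), and its difference of -0.53 (SE 0.16, adjusted p 0.0471) was near the threshold, called in 8 of the 24 fits that left out 1 library and not without the fed trio (-0.53) or the fed wild-type pair (-0.42).

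PPARA targets with uncalled differences include the carnitine transferase Cpt1a (-0.26, SE 0.15, adjusted p 0.357), the pyruvate dehydrogenase kinase Pdk4 (-0.65, SE 0.44, adjusted p 0.440) and the hormone Fgf21 (-0.52, SE 1.35, adjusted p 0.880). Ppara itself had fasted medians of 237 CPM in wild-type and 177 in WT/Y657* liver with no overlap, and its difference was -0.20 (SE 0.14, adjusted p 0.460).

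For lipid synthesis genes, too, the share called can be set beside the 4.35% of all genes. Of 26 fatty acid and triglyceride synthesis genes 2, Srebf1 and Elovl5, were called lower and 0 higher (median -0.25), and 4 lower without ALC_WT_860. Elovl5, a fatty acid elongase, rose in wild-type liver from a median of 242 to 970.0 CPM and went from 688 to 824.5 in WT/Y657* liver, a difference of -1.39 (SE 0.33, adjusted p 0.0125). It was not called without the fed trio (-0.78) or without the fed wild-type pair (-1.20). Of 26 cholesterol synthesis genes 1 was called lower and 0 higher (median -0.13). That 1 call was lost without any 1 of ONF_WT_918, ONF_WT_919, ONF_WT_920, ALC_WT_847, ALC_WT_849, ALC_WT_860, ONF_MT_806, ONF_MT_827, ALC_MT_857, ALC_MT_858, ALC_MT_859 or ALC_MT_869.

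Several genes outside these lists had large negative differences. Car3, carbonic anhydrase of liver and muscle, stood at 1978, 3018 and 3864 CPM in wild-type fed, 970.3, 1610.0 and 2086 in wild-type fasted, 1668, 2892 and 3810.1 in WT/Y657* fed and 110.4, 336 and 569.8 in WT/Y657* fasted liver, a difference of -2.19 (SE 0.52, adjusted p 0.0132). The fasted genotypes did not overlap, and without the fed wild-type pair it was -1.98 and not called. Serpinb1a, an inhibitor of neutrophil proteases, rose on fasting in wild-type liver from a median of 1.64 to 14.9 CPM and had medians of 3.81 and 4.01 in WT/Y657* liver. Its difference was -2.57 (SE 0.45, adjusted p 0.00137), and the 6 fasted wild-type libraries lay above the 6 fasted WT/Y657* libraries. Fam198a fell in both genotypes (-1.06 in wild-type and -3.13 in WT/Y657* liver), with a difference of -2.07 (SE 0.46, adjusted p 0.00852) and no overlap of the fasted genotypes. Serpinb1a and Fam198a were called without each set of libraries that stood apart.

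Id1, an inhibitor of basic helix-loop-helix factors, rose in wild-type liver from a median of 2.61 to 9.82 CPM, and the fasted genotypes did not overlap. Its difference of -2.75 (SE 0.63, adjusted p 0.0113) came to -1.18, not called, without the fed trio. Nfe2l2, which encodes the antioxidant factor NRF2, had fed medians of 61.1 CPM in wild-type and 79.2 in WT/Y657* liver that did not overlap, and fell on fasting in WT/Y657* liver (-0.50). Its difference was -0.66 (SE 0.11, adjusted p 0.000657), and it was called without each set of libraries that stood apart.

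The most negative fitted difference, that of the cytochrome Cyp2b9, rests on few counts. Cyp2b9 had at most 0.171 CPM in wild-type fed and 1.34 in WT/Y657* fasted liver, ranged from 1.61 to 75.03 in wild-type fasted liver, and reached 23.99 in ALC_MT_866 with a group median of 0. Its fitted difference of -11.66 (SE 2.18, adjusted p 0.00260) came to -4.20, not called, without ALC_MT_866 alone, and its sequence is close to that of other Cyp2b genes.

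Other genes outside the lists had large positive differences. Eif4ebp3, a repressor of translation initiation, had fasted medians of 9.25 CPM in wild-type and 27.6 in WT/Y657* liver and a difference of 2.24 (SE 0.54, adjusted p 0.0167). The ferritin receptor gene Scara5 fell on fasting in wild-type liver from a median of 26.6 to 1.08 CPM and had medians of 11.2 and 3.52 in WT/Y657* liver, with a difference of 3.19 (SE 0.84, adjusted p 0.0261). Acnat2, an acyl transferase with a close copy, rose in WT/Y657* liver from a median of 7.65 to 44.6 CPM, with a difference of 1.84 (SE 0.46, adjusted p 0.0194). All 3 overlapped between genotypes in both states.

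Eif4ebp3 was not called without the fed trio (1.76) or the fed wild-type pair (2.10). Scara5 was not called without the fed trio (3.13), the fasted pair (2.10) or the fed wild-type pair (2.79), nor without ONF_MT_806 (3.05) or ONF_MT_827 (2.63) alone. Acnat2 was not called without both WT/Y657* sets or without the fed wild-type pair (1.31), and its lowest difference over all settings was 1.27. Of the 47 genes with called differences that are named with values here, 29 were called without the fed trio, 36 without the fasted pair, 20 without both, 33 without the fed wild-type pair, 18 with the covariate and 9 with fed libraries from ALC_WT_856 to ALC_WT_860 alone, and 0 changed sign in any of these fits. These genes, too, were chosen for their difference with all libraries, so a kept sign was largely fixed beforehand.

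Core clock genes gave no call: 0 of 24 by edgeR, with 3 at an unadjusted p under 0.05, while DESeq2 called 2 higher and limma-voom 0. In edgeR 1 was called higher without ONF_WT_920, ONF_MT_921 or ALC_MT_858. Their median difference was -0.13. The repressor Nr1d1 (-0.74, SE 0.38, adjusted p 0.288) and the output factor Dbp (-0.83, SE 0.69, adjusted p 0.546) were not called. Dbp had a median of 23.1 CPM in wild-type fasted and 9.60 in WT/Y657* fasted liver, with ranges of 3.72 to 42.5 and 0.907 to 22.98. Of 36 ATF4 and integrated stress response genes 0 were called by edgeR, DESeq2 or limma-voom, 6 had an unadjusted p under 0.05 in edgeR, and the median was 0.02, with 1 called lower without ALC_WT_856. Trib3, an ATF4 target that inhibits AKT, had fasted medians of 11.5 CPM in wild-type and 5.53 in WT/Y657* liver, and its difference of -1.40 (SE 0.60, adjusted p 0.188) was not called, except in a fit of the 24 libraries alone (-1.40).

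**Figure D5:**
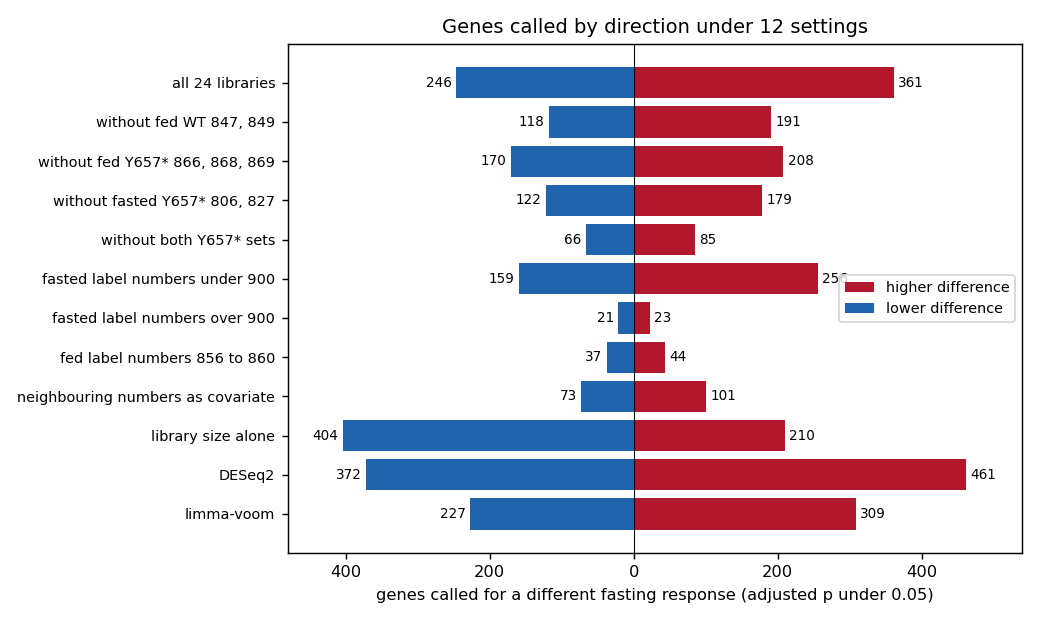
Bars give the number of genes called for a different fasting response under 12 settings. Genes with a lower difference of responses are to the left of 0 and genes with a higher one to the right. The total is 607 with all 24 libraries, 151 without both sets of WT/Y657* libraries and 44 with fasted libraries over 900 alone.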

How the data were processed

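The deposited table holds an estimated count per gene and library, made by the authors with programs the labels name as Cuffdiff, SAMtools, featureCounts and edgeR, without versions. Of 38283 genes 25285 had a count. The values were rounded to whole numbers, since 3.638% of those above 0 were not whole, which changed no library total by more than 8.0e-05%. The labels name the genome build mm9, while 99.66% of the loci of 36425 genes matched by gene ID to GENCODE M21 overlap their GRCm38 positions. A second deposited table, of values fitted by the authors, was left out because it holds no spread between mice.

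All 36 libraries in 6 groups of 6 entered 1 fit. Genes were kept by filterByExpr of edgeR 4.0.16 with the 6 groups, libraries were scaled by TMM with factors from 0.914 to 1.052 over the 24 libraries used, and differences came from the two-sided edgeR quasi-likelihood F test with robust dispersions. The genes tested shared 1 Benjamini-Hochberg adjustment, and a call means an adjusted p under 0.05. The biological coefficient of variation was 0.181. R 4.3.3, limma 3.58.1 and DESeq2 1.42.0 were also used. The method was tested on simulated data, in which 196 of 13737 genes were given a change in fasted WT/Y657* libraries. It recovered 58.67% of them, and 38.57% of those with a log2 change of 0.58 in size. Of its 123 calls 6.5% were false. Library totals, which bound what can be detected, are given with the results. No paired analysis was possible because the labels give every library its own number and name no pairs.

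Alternatives changed the scaling, filter, test, length or GC correction, threshold or the libraries used. Those without the fed trio, the fasted pair, both or the fed wild-type pair were chosen after seeing the data. Members and lists were chosen with earlier results of these data known. Genes were named from called genes with a mean of at least 5 CPM in a group, the same sign of the difference with fasted libraries under 900 and over 900, and no predicted-gene symbol. These were the 12 largest and the 12 smallest log2 differences, the 10 smallest p and up to 3 called members of each list with the smallest p. A further 21 genes were fixed whatever their result. The rule gave 87 genes, of which the text uses some. Single called members of lists and markers given by name alone were chosen after their values were seen.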

Additional observations from a re-analysis of the deposited data

Results flagged for a closer look

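Each result here was picked out by a test of the difference between the genotypes or by a library far from the others of its group. The fasting response differed between genotypes for 607 genes by the edgeR test of the difference itself, and the log2 differences of the named ones among them follow, with the response of WT/Y657* liver minus that of wild-type liver.

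Positive differences among genes for ribosomal and mitochondrial proteins and growth were 0.76 for Rpl41, 0.67 for Rpl9, 0.41 for Ndufa1, 0.51 for Cox7a2, 0.75 for Hspe1 and 0.94 for Cad. In the ER and glucocorticoid lists they were 2.13 for Creld2, 0.70 for Dnajc3, 0.60 for Ostc, 1.93 for Zbtb16, 1.07 for Fkbp5 and 1.45 for Tsc22d3. In the acute phase list they were 2.05 for Il1r1, 1.01 for Il6ra, 5.16 for Mt2 and 4.25 for Saa3. Others were 1.68 for SCARNA6, 1.68 for SNORA79, 1.20 for Pfkfb2, 0.95 for Nrbp2, 0.74 for Arhgap5, 2.24 for Eif4ebp3, 3.19 for Scara5, 1.84 for Acnat2 and 0.41 for Hnf4a.

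Negative differences in the interferon list and its relatives were -1.96 for Ifit1, -2.01 for Ifit3, -1.83 for Cmpk2, -1.96 for Gbp3, -1.97 for Gbp6 and -2.68 for Gbp10. Among metabolic and insulin signalling genes they were -1.24 for Srebf1, -1.06 for Fbp1, -1.18 for Pdk1, -0.58 for Phlpp1, -0.73 for Bdh1, -0.53 for Plin2, -1.39 for Elovl5, -1.11 for Oat and -0.53 for Gckr. Others were -2.19 for Car3, -11.66 for Cyp2b9, -2.57 for Serpinb1a, -2.07 for Fam198a, -2.75 for Id1, -0.66 for Nfe2l2 and -2.79 for Ms4a1.

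In 11 of 260 groups of 6 libraries, each being 1 named gene in 1 group, the highest or lowest library lay far from the rest by Dixon's criterion, which chance does in about 1 of 20 groups. In fed WT/Y657* liver these were Trib3 at 2.42 CPM in ALC_MT_858, Pdk4 at 4.05 in ALC_MT_859, Cyp2b9 at 23.99 in ALC_MT_866 and Serpinb1a at 1.165 in ALC_MT_858. In fasted WT/Y657* liver they were Cyp2b9 at 1.34 CPM in ONF_MT_921 and Nfe2l2 at 47.4 in ONF_MT_922. In wild-type liver they were Il6ra at 29.3 CPM in ALC_WT_849, Saa3 at 14.5 in ONF_WT_807, Creld2 at 55.8 in ALC_WT_860, Serpinb1a at 10.8 in ONF_WT_920 and Gckr at 93.5 in ONF_WT_807. Their causes were not tested.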

How the results depend on the processing

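The count of 607 genes with a different fasting response stayed within 1.5 times its value with RLE scaling, library size alone, DESeq2, the edgeR likelihood ratio test, limma-voom, a minimum of 10 counts in every library, the 24 libraries alone, fasted libraries under 900, and length or GC correction. It was 151 without both WT/Y657* sets, 301 without the fasted pair, 378 without the fed trio, 309 without the fed wild-type pair, 44 with fasted libraries over 900, 81 with fed libraries from ALC_WT_856 to ALC_WT_860, 174 with runs of label numbers as a covariate, 386 with no filter, 28 with Bonferroni adjustment and 404 at a log2 difference of at least 0.5. Leaving out 1 library gave 409 (without ONF_MT_806) to 745 (without ALC_MT_858). Of the 47 named called genes 47 were also called by DESeq2, 39 by limma-voom, 18 with the covariate, 13 with fasted libraries over 900 and 9 with fed libraries from ALC_WT_856 to ALC_WT_860.

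Counts of fasting responses moved with the threshold. Bonferroni adjustment gave 991 genes in wild-type and 987 in WT/Y657* liver, and a log2 change of at least 0.5 gave 2216 and 2302. The wild-type count was 2641 with fed libraries from ALC_WT_856 to ALC_WT_860 and 2499 with the covariate.

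The fed genotype count of 330 was 621 with DESeq2, 516 with the likelihood ratio test, 756 with library size alone, 207 with no filter, 211 with fasted libraries under 900, 19 without the fed wild-type pair, 3 without both WT/Y657* sets, 13 with Bonferroni adjustment and 203 at a log2 difference of at least 0.5. By edgeR it was 0 without the fed trio (1021 genes at an unadjusted p under 0.05), 0 with the covariate (666) and 1 with fed libraries from ALC_WT_856 to ALC_WT_860 (648). Leaving out 1 library gave 68 (without ALC_MT_868) to about 9.0e+02 (without ALC_MT_858).

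The fasted genotype count of 1821 was about 8.7e+02 without both sets, 738 without the fasted pair, 108 with fasted libraries over 900, 928 with those under 900, 140.0 with Bonferroni adjustment and 667 at a log2 difference of at least 0.5. Leaving out 1 library gave 1168 (without ONF_MT_806) to 2003 (without ONF_MT_921). None of the 47 named called genes changed sign, which for fasted libraries under 900 or over 900 the naming rule required of nearly all of them. Of the uncalled ones, Pik3r1 did in 18 settings, G6pc in 8, Insr and Rictor in 4 each, Fgf21 in 2 and Irs2 in 1. With library size alone, 210 genes were called higher and 404 lower in place of 361 and 246. Fits on fewer libraries have fewer samples, and otherwise the cause was not tested.

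Depth limits genes with few counts, such as Cyp2b9. Label number, feeding state and genotype overlap in the fed libraries, and tissue composition was not measured.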

Other observations

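The small nucleolar RNA SNORA79 had medians of 3.92 CPM fed and 2.71 fasted in wild-type liver and of 3.12 and 6.31 in WT/Y657* liver, with a difference of 1.68 (SE 0.34, adjusted p 0.00337 by the edgeR test). Without both WT/Y657* sets it was 1.45 and not called. By gene type, 8 of 61 small nucleolar, 4 of 11 small Cajal body and 2 of 7 small nuclear RNAs tested were called, all higher, against 570 of 12652 protein-coding genes, 330 higher and 240 lower. Such genes are short, as SNORA79 (chr12:91573430-91573572) and SCARNA6 (chr1:87776938-87777209) are, so their counts are uncertain. Whether reads of longer transcripts across them were counted was not tested. Within 10 megabases on each side of Pik3r1, 2 of 103 tested genes were called, where 607 of all 13945 were. These were Taf9 and Tbca, named after their values were seen.

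The remaining lists gave few calls of the difference. Of 14 transcripts encoded in mitochondria 0 were called by edgeR (6 at an unadjusted p under 0.05), 1 by DESeq2 and 0 by limma-voom, with a median of 0.36. ONF_MT_806 and ONF_MT_923 were lowest for these transcripts. Of 36 proteasome genes 1 was called higher, Psma7 (median 0.15). Of 27 growth hormone and STAT5 genes C6 and Mup20 were called higher and Cyp2b9 and Stat5b lower (median -0.08). Of 36 cytochromes P450 Cyp2b9 was called lower (median -0.24), and of 27 bile acid genes Hsd3b7 was (median -0.25).

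Of 52 autophagy and lysosome genes Gabarapl2 and Bnip3 were called higher and Atg7 and Sqstm1 lower (median -0.04). Of 31 cell cycle genes Mcm4 was called lower (median -0.17), and of 48 splicing factors Srsf3, Hnrnph1 and Snrpe were called higher (median 0.13). The 26 immediate early genes (median -0.39) and the 12 markers of library composition (median 0.07) gave 0 calls by edgeR, DESeq2 and limma-voom, with 2 of each at an unadjusted p under 0.05 in edgeR. All these single members were named after their values were seen. Leaving out 1 library changed these counts to 0 to 2 for proteasome genes, 1 to 3 higher and 1 to 2 lower for growth hormone genes, 0 to 1 higher and 1 to 2 lower for cytochromes P450, 0 to 2 lower for bile acid genes, 1 to 3 higher and 0 to 4 lower for autophagy genes, 0 to 2 lower for cell cycle genes and 1 to 4 higher for splicing factors. For transcripts encoded in mitochondria and for composition markers it gave 0 to 1 higher.

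Levels of the clock list differed with the label series. Wild-type fasted libraries lay at -0.45 to -0.14 under 900 and at 0.18 to 0.30 over 900, and WT/Y657* fasted libraries at -0.52 to -0.18 and at -0.04 to 0.005. The list joins genes of different roles, such as the repressor Nr1d1 and the output factor Dbp, so its mean does not measure clock time. The labels give no time of day, and the part of time of day was not tested.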
